A study of Mus musculus with 16 samples.

Results

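Kruppel-like factors are described here by 9 of the 27179 rows of a mouse gene table, those with the symbols Klf2, Klf3, Klf4, Klf5, Klf6, Klf7, Klf9, Klf10 and Klf13. All 9 passed the filter on low values, at least 10 normalized counts in at least 4 of 16 libraries, as did 15024 genes in all. The libraries come from cells sorted by flow cytometry for the receptor Pdgfrb, taken at postnatal day 7 from the epididymal fat of C57BL/6 mice. The sorted cells were mesothelial-like cells (MLCs), smooth muscle cells (SMCs), adipocyte precursor cells (APCs) and fibro-inflammatory progenitors (FIPs), with 4 libraries each. All 4 populations share the strain, the age, the depot and the Pdgfrb gate, and no treatment or engineered allele is given in the labels. The labels do not say whether the 4 libraries of a population came from separate animals or sorts, so a p-value reflects only how far these libraries spread, and that spread may be technical. A library held 9.20 to 27.5 M reads (median 21.6 M).

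Kruppel-like factors are transcription factors that bind GC-rich DNA and CACCC boxes through zinc fingers at their C-terminal end, and their other ends recruit coactivators or corepressors. Several act in sequence during fat cell formation. In mouse preadipocytes Klf4 induces Cebpb, Klf5 and Klf9 act on Pparg, Klf6 represses Dlk1, and Klf2 and Klf3 hold differentiation back. Klf2, Klf4, Klf6 and Klf10 are also rapidly inducible genes, which answer quickly to serum, shear stress or cytokines.

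RefSeq promoters on the GRCm38.p6 build, from 250 bases before the start of each gene, were given for 7 members, all but Klf5 and Klf10. They are shown for Klf2, Klf4 and Klf6, the members with the highest levels per kilobase of exon, and for Klf3, whose promoter held the largest number of GC boxes among the 7. Capitals mark GC boxes (GGGCGG) and CACCC boxes (CCACCC), the kinds of element that these factors themselves bind, on either strand.
Klf2, chr8:72318812-72319061, plus strand: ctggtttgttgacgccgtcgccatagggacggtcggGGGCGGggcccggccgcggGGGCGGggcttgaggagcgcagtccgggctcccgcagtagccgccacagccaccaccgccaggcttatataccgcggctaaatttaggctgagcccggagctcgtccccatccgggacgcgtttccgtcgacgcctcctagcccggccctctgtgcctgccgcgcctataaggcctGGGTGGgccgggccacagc
Klf3, chr5:64803271-64803520, plus strand: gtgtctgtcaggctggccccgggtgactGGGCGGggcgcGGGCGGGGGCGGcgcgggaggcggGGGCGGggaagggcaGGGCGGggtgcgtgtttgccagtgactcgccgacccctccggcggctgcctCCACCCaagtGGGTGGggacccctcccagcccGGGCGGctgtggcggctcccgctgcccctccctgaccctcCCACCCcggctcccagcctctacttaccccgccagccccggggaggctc
Klf4, chr4:55532476-55532725, minus strand: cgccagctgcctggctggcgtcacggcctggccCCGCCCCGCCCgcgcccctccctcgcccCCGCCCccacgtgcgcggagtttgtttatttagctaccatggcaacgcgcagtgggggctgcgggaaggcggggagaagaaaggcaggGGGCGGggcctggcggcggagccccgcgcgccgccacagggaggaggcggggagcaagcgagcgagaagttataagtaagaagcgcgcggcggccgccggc
Klf6, chr13:5861239-5861488, plus strand: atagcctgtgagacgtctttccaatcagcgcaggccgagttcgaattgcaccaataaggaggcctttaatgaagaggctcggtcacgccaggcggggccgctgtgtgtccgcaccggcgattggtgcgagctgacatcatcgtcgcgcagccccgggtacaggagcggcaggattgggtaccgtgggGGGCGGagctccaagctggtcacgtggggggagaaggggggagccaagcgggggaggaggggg

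The GC box stood 2 times in the Klf2 promoter, 6 times in Klf3, 4 times in Klf4, 1 time in Klf6 and in Klf7, and 3 times in Klf13, and was not found in Klf9. Of 32851 mouse promoters of the same length 32.7% held this box on either strand. The CACCC box stood 3 times in Klf3 and in Klf7 and 1 time in Klf2 and in Klf13, against 28.1% of all promoters with at least 1. A pair of GC boxes in Klf4 shared a base, and a GC box and a CACCC box overlapped in Klf13. The GC content was 59.2% in Klf7, 59.6% in Klf9, 64.8% in Klf6, 71.2% in Klf2, 71.6% in Klf13, 74% in Klf4 and 78.4% in Klf3, against a median of 52.4% over all promoters. The CCAAT box (CCAAT) stood 4 times in Klf6, 3 times in Klf9 and 2 times in Klf13, and 33.8% of all promoters held it. A MEF2 site, the element bound by the MEF2 factors, stood in Klf2 alone of the 7, from 118 to 109 bases before the start, and 2.92% of all promoters held 1. An AP-1 site (TGANTCA) was found in Klf9 alone of the 7, against 6.75% of all promoters. Among the 7, the core of the cyclic AMP response element (TGACG, 17.8% of all promoters) stood 1 time each in Klf2, Klf4, Klf9 and Klf13, and the TATA box (TATAAA, 12.4%) and the CArG box (1.47%) in no member. These are matches of letters in 1 window and not sites of measured binding.

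Per kilobase of exon, which allows genes to be set beside each other, Klf4 was the most abundant member in each population. It averaged 9519 normalized counts per kb in MLCs and 10658 in SMCs, against 11483 in APCs and 15244 in FIPs. Klf2 came next, with 7244 per kb in MLCs and 7395 in SMCs, against 9873 in APCs and 9944 in FIPs, then Klf6, with 3364 per kb in MLCs and 2429 in SMCs, against 4124 in APCs and 7215 in FIPs. Klf5 and Klf7 were the scarcest, Klf5 at 99.7 per kb in MLCs and 183 in SMCs, against 11.2 in APCs and 10.7 in FIPs, and Klf7 between 31.0 and 54.1 per kb. The exon lengths are unions over GENCODE M21 basic transcripts, so a population that uses a short isoform would have its level per kb understated. Together the 9 members took 0.323% to 0.490% of the summed values of a library.

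**Figure D1:**
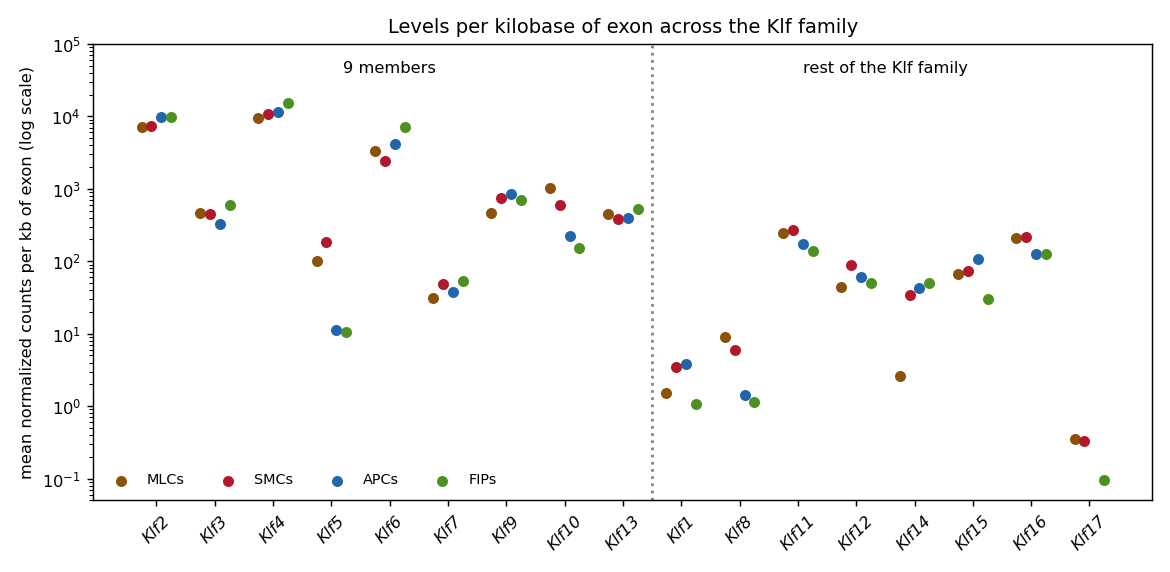
Mean normalized counts per kilobase of exon, on a log axis, for each population (colour) in the 9 members (left of the dotted line) and the rest of the Klf family (right). Klf4, Klf2 and Klf6 lie at the top in all 4 populations and Klf5 spans the widest range of the members, while Klf17 has no point for APCs, where it was listed at 0.

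The members differed widely in how far the populations stood apart. The ratio of the highest to the lowest population mean was 17.1 for Klf5, 6.83 for Klf10 and 2.97 for Klf6. It was 1.80 for Klf3, 1.78 for Klf9, 1.74 for Klf7, 1.601 for Klf4, 1.37 for Klf2 and 1.35 for Klf13. Klf2, Klf3, Klf4, Klf6, Klf7 and Klf13 had their highest mean in FIPs, Klf9 in APCs, Klf5 in SMCs and Klf10 in MLCs. The place of FIPs at the top turned with libraries scaled to equal totals for Klf2 (APCs higher by 0.23 on the log2 scale), Klf7 (SMCs higher by 0.060) and Klf13 (MLCs higher by 0.11), and for Klf2 also with quantile normalization. Equal totals moved the median of all genes by more than 0.1, to 0.23 in APCs against FIPs, 0.35 in MLCs against FIPs and 0.22 in SMCs against FIPs.

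Klf5 and Klf10 were higher in MLCs and in SMCs than in both progenitor populations, and Klf6 was lower in MLCs and in SMCs than in FIPs. A member was called where limma gave a Benjamini-Hochberg adjusted p under 0.05, taken over all genes tested, and a difference of at least 2-fold. Klf5 and Klf10 were the 2 members called between MLCs and APCs, where 29.6% of all genes were called, and the same 2 were called between SMCs and APCs, with 17.2% of all genes. With Klf6 3 members were called between MLCs and FIPs (31.1% of all genes) and between SMCs and FIPs (17.9%).

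Between APCs and FIPs limma called 0 members, where 10.4% of all genes were called. In that pair 7 members had an unadjusted p under 0.05 and 6 an adjusted p under 0.05, a limit that 41.1% of all genes passed. Between MLCs and SMCs limma also called 0 members, against 27.9% of all genes, and 7 members passed both the unadjusted and the adjusted p, against 65.6% of all genes for the adjusted one. edgeR and DESeq2 called 0 members in both pairs too. Without the fold limit 7 members passed between MLCs and APCs (67.5% of all genes), 9 between MLCs and FIPs (67.2%), 6 between SMCs and APCs (56.2%) and 7 between SMCs and FIPs (54%). The median log2 fold change of the 9 members was -0.38 in APCs against FIPs, -0.26 in MLCs against APCs, -0.46 in MLCs against FIPs, -0.059 in SMCs against APCs, -0.40 in SMCs against FIPs and -0.036 in MLCs against SMCs, where the medians of all genes lay between -0.010 and 0.037. The 6 pairs share their libraries and are not independent of each other.

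**Figure D2:**
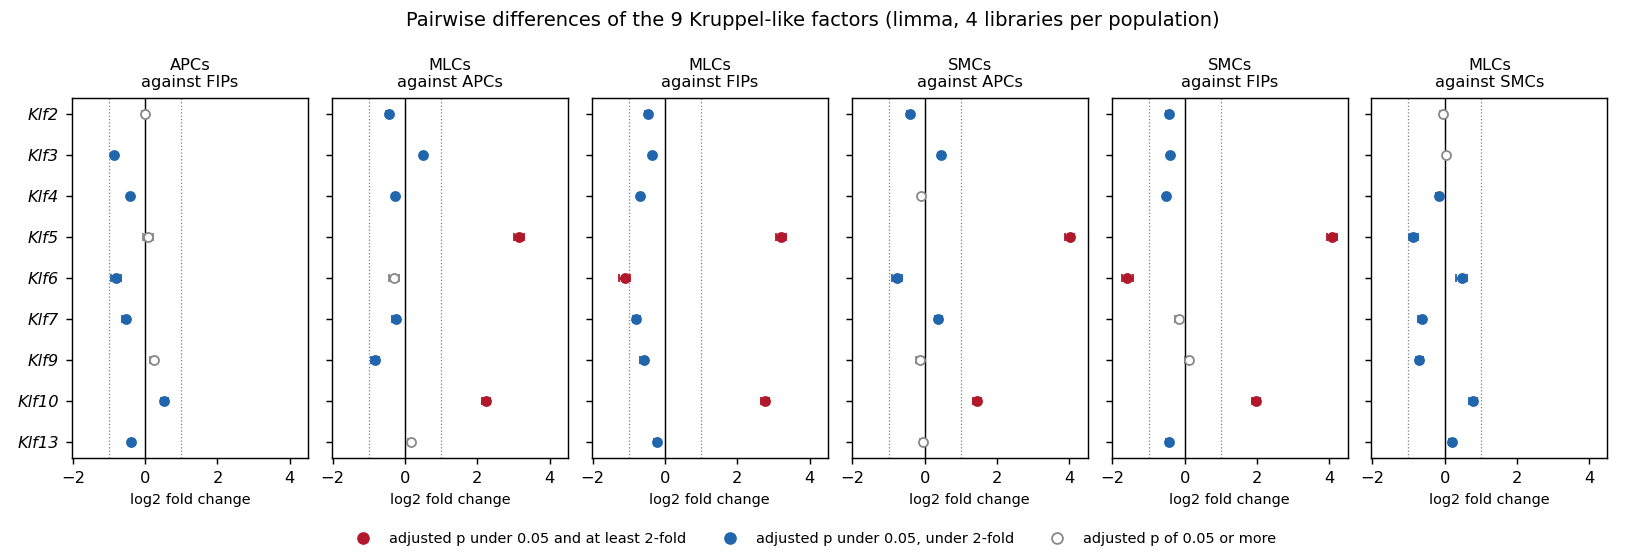
Log2 fold change ± SE of each member in the 6 pairs of populations (limma, 4 libraries per population), positive where the first population is higher, with dotted lines at 2-fold. Klf5 and Klf10 lie to the right of 2-fold in all 4 comparisons of MLCs or SMCs with a progenitor population, and Klf6 to the left of it in both comparisons with FIPs.

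Klf5 codes for a factor first studied in the remodelling of vascular smooth muscle, which also acts with Cebpb and Cebpd on the Pparg promoter (Entrez gene 12224, GRCm38 chromosome 14, 99298691 to 99313412, plus strand). It had 498.5, 556, 494 and 525 normalized counts in MLCs replicates 1 to 4 and 784, 1139, 974 and 904 in SMCs, against 73.5, 52.4, 57.9 and 50.1 in APCs and 51.4, 65.6, 59.2 and 46.3 in FIPs. The SMC libraries were the highest and the MLC libraries next, with no overlap between these 2 populations or with the progenitors, while the APC and FIP libraries overlapped. Klf5 rose by 3.14 ± 0.14 (log2 ± SE, adjusted p = 8.60e-14) in MLCs over APCs and by 3.21 ± 0.14 over FIPs (adjusted p = 5.81e-14), an 8.82-fold and a 9.24-fold difference. It rose by 4.002 ± 0.14 in SMCs over APCs (adjusted p = 2.61e-14) and by 4.07 ± 0.14 over FIPs (adjusted p = 1.37e-14), a 16.02-fold and a 16.8-fold difference. Between MLCs and SMCs the log2 difference of -0.86 ± 0.14 passed the adjusted p (1.74e-05) but not the fold limit. Between APCs and FIPs it was 0.067 ± 0.14 (adjusted p = 0.732), with the sign turned to -0.033 by quantile normalization. In bulk RNA of a sorted population, fewer cells with the transcript and less transcript per cell cannot be told apart.

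Of the marker lists summed here, only the mesothelial sum was higher in every MLC and SMC library than in every progenitor library. Klf5 and Klf10 shared this, but unlike Klf5 the mesothelial sum was higher in MLCs than in SMCs. The macrophage and myeloid sum was 915 to 1140 in SMCs and 605 to 1324 in APCs, so these libraries overlapped. The lymphocyte sums of these populations overlapped as well. The summed level of 11 mesothelial markers was 138604 to 142853 normalized counts in MLCs and 9861 to 15923 in SMCs, against 3839 to 4324 in APCs and 3012 to 3579 in FIPs. All 11 were called higher in MLCs than in each of the other 3 populations, and 10 of the 11, all but Wt1, were called higher in SMCs than in APCs and than in FIPs. The summed level of 11 smooth muscle and pericyte markers was 5111 to 5735 in MLCs and 9948 to 15016 in SMCs, against 7018 to 9329 in APCs and 3887 to 4398 in FIPs. In SMCs replicates 1 to 4 this sum was 14605, 12455, 15016 and 9948, where Klf5 had 784, 1139, 974 and 904. The mesothelial sum in the same libraries was 13674, 12018, 15923 and 9861, which ranked them as the smooth muscle and pericyte sum did. Fibroblast and progenitor markers, dominated by collagen, were highest in SMCs, with a sum over 8 genes of 448291 to 486514 in MLCs and 1033090 to 1270420 in SMCs, against 578513 to 605241 in APCs and 799462 to 878949 in FIPs. The part of mixed cells in the Klf5 and Klf10 differences was not tested.

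Klf10 codes for a factor first cloned as a gene that TGF-beta induces early, and it represses transcription with Sin3 corepressors (Entrez gene 21847, chromosome 15, 38291464 to 38300711, minus strand). It had 3461, 3807, 4535 and 4153 normalized counts in MLCs replicates 1 to 4 and 1853, 2358, 2688 and 2335 in SMCs, against 749, 784, 1022 and 849 in APCs and 585, 533, 646 and 571 in FIPs. The 4 populations formed 4 steps with no overlap between any pair, in the order MLCs, SMCs, APCs and FIPs from high to low. Klf10 rose by 2.23 ± 0.11 in MLCs over APCs (log2 ± SE, adjusted p = 6.14e-13) and by 2.77 ± 0.11 over FIPs (adjusted p = 1.94e-14). In SMCs it rose by 1.44 ± 0.11 over APCs (adjusted p = 2.20e-09) and by 1.97 ± 0.11 over FIPs (adjusted p = 1.68e-11). MLCs against SMCs, at 0.79 ± 0.11 (adjusted p = 3.26e-06), and APCs against FIPs, at 0.54 ± 0.11 (adjusted p = 5.83e-04), passed the adjusted p but stayed under 2-fold. Klf10 was the only member for which each of the 6 pairs passed the adjusted p, which 41.1% to 67.5% of all genes passed in a single pair. The share of all genes that passed in each of the 6 pairs was not counted.

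**Figure D3:**
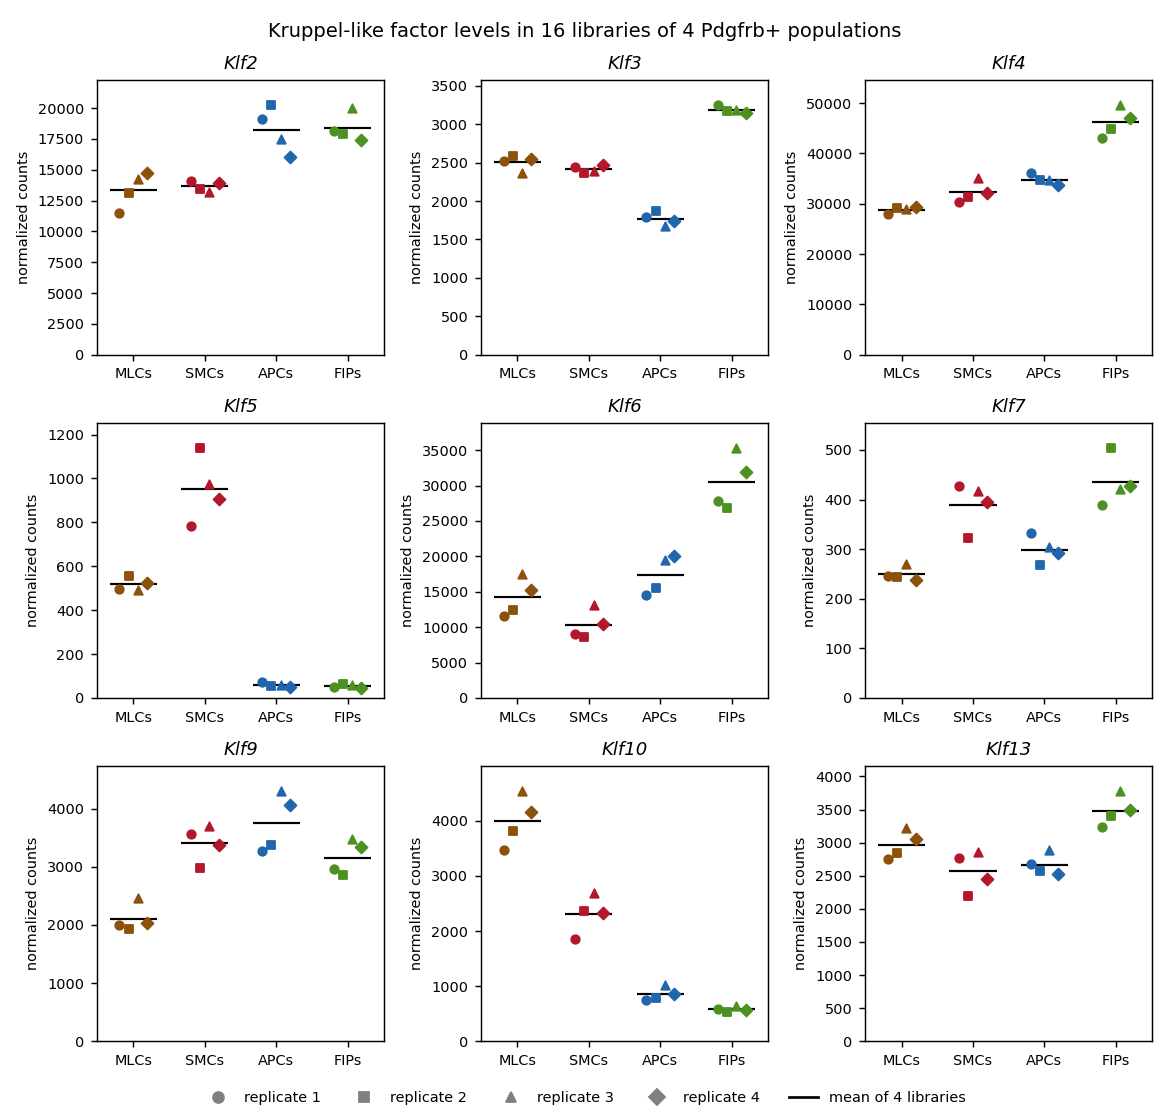
Normalized counts of each member in the 16 libraries, with a symbol per replicate number and a bar at the mean of the 4 libraries, on axes that start at 0. Klf5 is low in all 8 APC and FIP libraries, Klf10 steps down over the 4 populations, and the libraries of FIPs stand above the others for Klf3, Klf4 and Klf6.

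Klf6 codes for a factor induced early after tissue injury, which represses the preadipocyte gene Dlk1 in mouse cells (Entrez gene 23849, chromosome 13, 5861489 to 5870393, plus strand). It had 11554, 12484, 17534 and 15275 normalized counts in MLCs replicates 1 to 4, 8982, 8602, 13068 and 10393 in SMCs, and 14583, 15570, 19431 and 20105 in APCs, against 27876, 26776, 35307 and 31972 in FIPs. Every FIP library was above every library of the other populations, and the MLC libraries overlapped both the SMC and the APC ones. Klf6 fell by 1.58 ± 0.14 (log2 ± SE) in SMCs against FIPs (adjusted p = 2.32e-08) and by 1.11 ± 0.14 in MLCs against FIPs (adjusted p = 1.25e-06). The call in MLCs rests on the scaling, since the log2 difference was -0.78 with libraries scaled to equal totals and -0.66 with quantile normalization, both under 2-fold. In APCs against FIPs it was -0.81 ± 0.14 (adjusted p = 1.46e-04) and in SMCs against APCs -0.77 ± 0.14 (adjusted p = 1.86e-04), under the fold limit. MLCs against SMCs gave 0.47 ± 0.14 (adjusted p = 0.00800), and MLCs against APCs gave -0.30 ± 0.14 (adjusted p = 0.0752). Its libraries spread widely within a population, with an SD of 19.1% of the mean in MLCs and 19.7% in SMCs, against 15.8% in APCs and 12.8% in FIPs.

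Klf4, the reprogramming factor that with Egr2 induces Cebpb early in fat cell formation, is on chromosome 4 (Entrez gene 16600, 55527137 to 55532475, minus strand). It had 27920, 29248, 28878 and 29286 normalized counts in MLCs, 30430, 31298, 35204 and 32203 in SMCs, and 36128, 34639, 34700 and 33657 in APCs, against 43152, 44770, 49681 and 47094 in FIPs. The FIP libraries were the highest and the MLC libraries the lowest, each apart from the rest, while SMCs and APCs overlapped. The log2 difference from FIPs was -0.68 ± 0.06 in MLCs (adjusted p = 1.59e-08), -0.52 ± 0.06 in SMCs (adjusted p = 1.57e-06) and -0.41 ± 0.06 in APCs (adjusted p = 4.12e-05), all under 2-fold. With quantile normalization the difference from FIPs was -0.17 in MLCs (adjusted p = 0.0140), -0.036 in SMCs (adjusted p = 0.621) and -0.12 in APCs (adjusted p = 0.122). Between SMCs and APCs it was -0.11 ± 0.06 (adjusted p = 0.159) and turned to 0.081 with quantile normalization.

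Klf2, which keeps endothelium and T cells quiescent and represses Pparg in mouse preadipocytes, lies on chromosome 8 (Entrez gene 16598, 72319062 to 72321654, plus strand). It had 11496, 13087, 14228 and 14710 normalized counts in MLCs and 14080, 13436, 13229 and 13892 in SMCs, against 19095, 20266, 17523 and 16056 in APCs and 18144, 17933, 19971 and 17416 in FIPs. Each MLC and SMC library was below each progenitor library. The log2 difference was -0.45 ± 0.08 in MLCs against APCs (adjusted p = 5.95e-05), -0.46 ± 0.08 in MLCs against FIPs (adjusted p = 4.07e-05), -0.41 ± 0.08 in SMCs against APCs (adjusted p = 2.43e-04) and -0.43 ± 0.08 in SMCs against FIPs (adjusted p = 1.69e-04), all under 2-fold. Against FIPs these values shrank with quantile normalization, to -0.023 in MLCs (adjusted p = 0.817) and -0.051 in SMCs (adjusted p = 0.631), and with libraries scaled to equal totals, to -0.13 in MLCs (adjusted p = 0.147) and -0.20 in SMCs (adjusted p = 0.0290). APCs and FIPs differed by -0.014 ± 0.08 (adjusted p = 0.912), a value that became 0.23 (adjusted p = 0.0149) with libraries scaled to equal totals and 0.22 (adjusted p = 0.0471) with quantile normalization.

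Endothelial cells, in which Klf2 is a defining factor, were traced by 10 markers. Their summed level was 2391 to 3365 normalized counts in MLCs and 3521 to 4358 in SMCs, against 1133 to 1677 in APCs and 7892 to 8800 in FIPs, and in FIPs it consisted mostly of Tek, with 7827 on average. Pecam1, the surface marker of endothelium, averaged 102 in MLCs and 30.6 in SMCs, against 102 in APCs and 87.8 in FIPs, and Cdh5, the endothelial cadherin, 129, 1698, 124 and 90.9 in the same populations. Whether endothelial cells had a part in the Klf2 levels was not tested.

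Klf3, a repressor that recruits CtBP and binds the Cebpa promoter, had a small spread within populations (Entrez gene 16599, chromosome 5, 64803521 to 64832901, plus strand). It had 2520, 2587, 2370 and 2545 normalized counts in MLCs, 2441, 2363, 2387 and 2471 in SMCs, and 1797, 1869, 1676 and 1743 in APCs, against 3254, 3172, 3190 and 3144 in FIPs. The FIP libraries lay above and the APC libraries below all others, and the MLC and SMC libraries overlapped in between. At 1771 ± 81.7 in APCs against 3190 ± 46.6 in FIPs (SD over 4 libraries each), Klf3 differed most between these 2 progenitors among the members, by -0.85 ± 0.05 (log2 ± SE, adjusted p = 2.04e-11), still under 2-fold. MLCs were above APCs by 0.50 ± 0.05 (adjusted p = 9.71e-09) and SMCs by 0.45 ± 0.05 (adjusted p = 1.34e-07). MLCs were below FIPs by a log2 difference of -0.35 ± 0.05 (adjusted p = 1.43e-06, and -0.013 with adjusted p = 0.815 with libraries scaled to equal totals), and SMCs by -0.40 ± 0.05 (adjusted p = 4.91e-07).

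Klf9, a factor that thyroid hormone and glucocorticoids induce, was lowest in MLCs (Entrez gene 16601, chromosome 19, 23141226 to 23168129, plus strand). It had 1992, 1922, 2466 and 2034 normalized counts in MLCs, against 3557, 2983, 3704 and 3373 in SMCs, 3271, 3367, 4297 and 4055 in APCs and 2961, 2862, 3481 and 3332 in FIPs. No MLC library reached a library of another population, and the other 3 populations overlapped each other. The log2 difference was -0.83 ± 0.10 in MLCs against APCs (adjusted p = 3.32e-07), -0.59 ± 0.10 against FIPs (adjusted p = 2.53e-05) and -0.70 ± 0.10 against SMCs (adjusted p = 3.79e-06), under 2-fold in each. APCs against FIPs gave 0.24 ± 0.10, which missed the limit (adjusted p = 0.0553) but passed it at 0.49 (adjusted p = 1.41e-04) with libraries scaled to equal totals and at 0.35 (adjusted p = 0.00402) with quantile normalization.

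Klf13, a repressor that acts through Sin3a, differed least over the populations (Entrez gene 50794, chromosome 7, 63886351 to 63938915, minus strand). It had 2751, 2846, 3228 and 3056 normalized counts in MLCs, 2772, 2199, 2859 and 2457 in SMCs, and 2681, 2579, 2893 and 2525 in APCs, against 3235, 3402, 3775 and 3488 in FIPs. The FIP libraries stood above all others, and the other 3 populations overlapped. The log2 difference from FIPs was -0.44 ± 0.08 in SMCs (adjusted p = 8.93e-05), -0.38 ± 0.08 in APCs (adjusted p = 5.42e-04, or -0.13 with adjusted p = 0.116 with libraries scaled to equal totals) and -0.23 ± 0.08 in MLCs (adjusted p = 0.0145), the last turning to 0.11 (adjusted p = 0.165) with libraries scaled to equal totals.

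Klf7, which restrains fat cell formation in cultured human preadipocytes, was lowest in MLCs (Entrez gene 93691, chromosome 1, 64029448 to 64122345, minus strand). It had 246, 244, 269 and 239 normalized counts in MLCs, 426, 322, 416 and 394 in SMCs, and 332, 269, 304 and 292 in APCs, against 389, 504, 422 and 427 in FIPs. The MLC libraries lay below all SMC and FIP libraries but 1 of them overlapped APCs, and SMCs and FIPs overlapped. The log2 difference was -0.80 ± 0.10 in MLCs against FIPs (adjusted p = 7.82e-07), -0.63 ± 0.10 in MLCs against SMCs (adjusted p = 1.65e-05), -0.54 ± 0.10 in APCs against FIPs (adjusted p = 2.28e-04) and 0.38 ± 0.10 in SMCs against APCs (adjusted p = 0.00370). SMCs against FIPs gave -0.16 ± 0.10 (adjusted p = 0.185), or 0.060 with libraries scaled to equal totals. The Klf7 values are uncertain, because 3196 exonic bases are shared with the noncoding gene Gm26649 on the other strand and the strand setting of the counting is not given in the sources used here.

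The library numbered 3 stood high for several members. Klf9, Klf10 and Klf13 had their highest value in replicate 3 in each of the 4 populations, which 0.845% of all tested genes did, against 0.459% to 1.18% for the other replicate numbers. Above the mean of its own population, replicate 3 lay by 0.15 to 0.27 on the log2 scale for Klf10, by 0.13 to 0.24 for Klf9 and by 0.12 to 0.16 for Klf13. Klf6 was highest in replicate 3 of MLCs, SMCs and FIPs, and in APCs replicate 4 was higher still, with replicate 3 at 0.17 to 0.37 above its population means. Over the 36 combinations of a member and a population the highest value was in replicate 3 in 19, in replicate 2 in 7, in replicate 1 in 6 and in replicate 4 in 4, and over all tested genes 25.2% of the highest values were in replicate 3. Not all members shared this: Klf3 and Klf5 had their highest value in replicate 3 of no population. For Klf2 it was there in FIPs alone, for Klf7 in MLCs alone and for Klf4 in SMCs and FIPs alone. Klf5 had its highest value in replicate 2 of MLCs, SMCs and FIPs and in replicate 1 of APCs. Replicate 3 was the shallowest library of all in SMCs, with 9.20 M reads, and the deepest of all in APCs, with 27.5 M. Of the other lists of genes, Egr3, Ier5 and Myc among the immediate early genes, and Sp2, Errfi1 and Smad7, were also highest in replicate 3 of each population. What set these libraries apart was not tested, and the pattern was noticed after the values were seen. No member gained or lost a call at both limits when any 1 of the 16 libraries was left out.

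**Figure D4:**
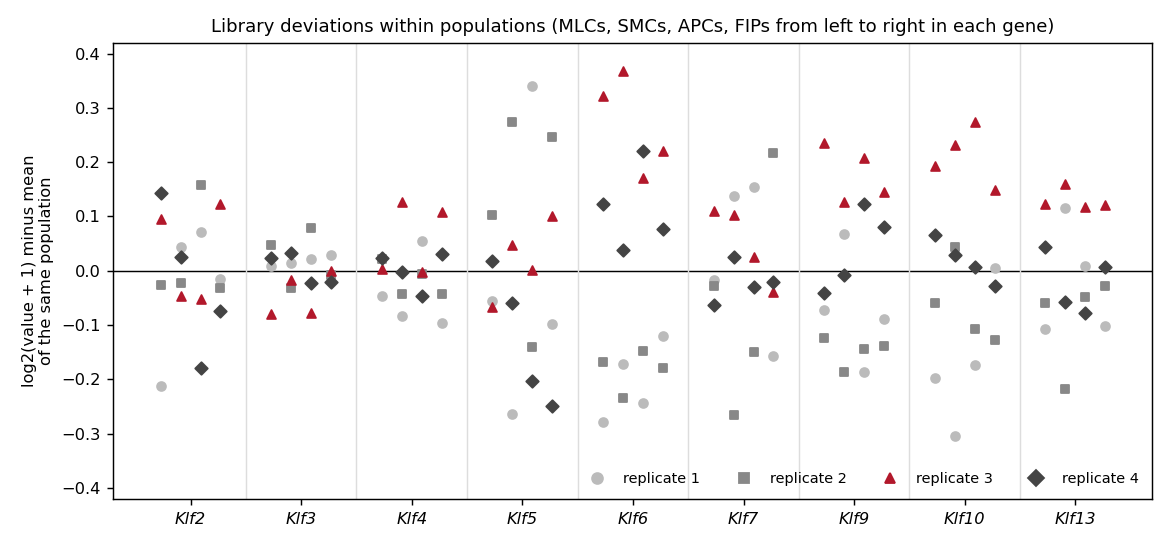
Each library's log2(value + 1) minus the mean of its population, for the 9 members, with the populations side by side within each gene. Replicate 3 (red triangles) is on top in all 4 populations for Klf9, Klf10 and Klf13, at 0.12 to 0.27 above the population mean.

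Genes whose 4 population means ran closest to those of a member were sought among 10936 genes with a mean of at least 100, by the root mean square difference of centred log2 values over the 4 populations. For Klf10 the nearest were Prkd1, a kinase (0.07), with 1391 normalized counts in MLCs and 790 in SMCs, against 323 in APCs and 197 in FIPs, and Mid1ip1 (0.08), with 2218, 1200, 408 and 294. For Klf6 they were Clec2d, coding for a lectin-like receptor (0.05), with 179, 128, 233 and 422, and Map3k8, a kinase (0.07), with 1265, 889, 1483 and 2400. No gene came within 0.25 of Klf5, for which Etl4 (0.27) and the synapsin gene Syn3 (0.28) were nearest, and only 26 did for Klf10 and 46 for Klf6. For Klf13 4501 genes came within that distance, for Klf2 4022 and for Klf4 3093, since those factors differed little between populations. The nearest for the others were Zfp874a and Vdac3 for Klf2, Ppic and Rubcn for Klf3, Katnbl1 and Txndc5 for Klf4, Pdlim7 and Snx21 for Klf7, Cand2 and Arhgap31 for Klf9, and Shisa5 and Snap29 for Klf13. With 4 means per gene, such likeness is a description.

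**Figure D5:**
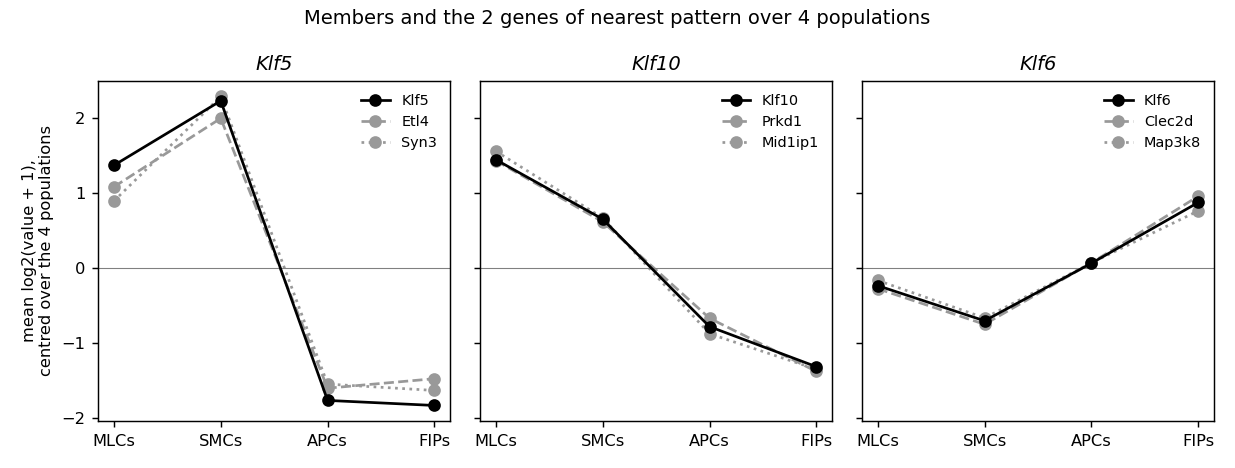
Mean log2(value + 1) of Klf5, Klf10 and Klf6 (black) in the 4 populations, centred over them, and of the 2 genes nearest to each (grey). The grey lines run close to Klf10 and Klf6, at root mean square differences of at most 0.08, and stand 0.27 and 0.28 from Klf5 by that measure.

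The rest of the Klf and Sp family counted 17 genes, of which 12 passed the filter and Klf1, Klf17, Sp6, Sp8 and Sp9 did not. Klf15, which acts late in fat cell formation and on the glucose transporter gene Slc2a4, was the only 1 of the 12 called between APCs and FIPs. It had 282, 303, 325 and 291 normalized counts in APCs, against 86.1, 80.4, 81.2 and 88.9 in FIPs, and rose by 1.82 ± 0.10 (log2 ± SE, adjusted p = 2.95e-11). Klf15 was also called in MLCs over FIPs, by 1.12, and in SMCs over FIPs, by 1.26, but with quantile normalization these were 0.75 and 0.96 and under 2-fold.

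Klf14, an imprinted gene without introns, fell in MLCs, which had 7.54, 7.61, 7.38 and 9.68 normalized counts, with log2 differences of -3.56 against SMCs, -3.87 against APCs and -4.06 against FIPs. Klf8, a CtBP-binding repressor, and Sp5, a target of Wnt signals, were called higher in MLCs and in SMCs than in each progenitor population. Klf8 averaged 45.7 in MLCs and 31.0 in SMCs, against 7.35 in APCs and 5.91 in FIPs, and Sp5 126, 7.92, 0.211 and 1.63, and the Sp5 libraries of SMCs and FIPs overlapped, a call lost with quantile normalization (log2 difference 0.57, adjusted p = 0.316). Of the 12, 2 were higher and 2 lower in MLCs against APCs, 3 and 2 in MLCs against FIPs, 2 and 0 in SMCs against APCs, 3 and 0 in SMCs against FIPs, and 1 and 2 in MLCs against SMCs. In the same order of pairs, 29.6%, 31.1%, 17.2%, 17.9% and 27.9% of all genes were called. Sp7, the osteoblast factor also called osterix, was the other 1 that fell in MLCs, at 3.25 on average there, and its call against FIPs was lost with libraries scaled to equal totals.

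Of 13 corepressors, coactivators and ubiquitin ligases known to act with Kruppel-like factors, among them Ctbp1, Sin3a, Ep300 and Wwp1, limma, edgeR and DESeq2 each called 0 in every pair, where limma called 10.4% to 31.1% of all genes. In limma 7 to 11 of the 13 had an unadjusted p under 0.05 and 6 to 11 an adjusted p under 0.05, a limit that 41.1% to 67.5% of all genes passed. Their log2 fold changes ran from -0.82 to 0.58 over the 6 pairs.

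Immediate early genes, with which Klf2, Klf4, Klf6 and Klf10 share rapid induction, were abundant in all libraries, at 3.23% to 4.51% of the summed values. Among 22 such genes limma called 5 up and 3 down in MLCs against APCs, 4 and 4 in MLCs against FIPs, 3 and 3 in SMCs against APCs and again against FIPs, 4 and 1 in MLCs against SMCs, and 0 and 1 in APCs against FIPs. In the same order of pairs, 29.6%, 31.1%, 17.2%, 17.9%, 27.9% and 10.4% of all genes were called. Nr4a2, an inducible nuclear receptor, stood in the same order of populations as Klf10, with 2507 normalized counts on average in MLCs and 860 in SMCs, against 177 in APCs and 113 in FIPs. Socs3, a feedback inhibitor of cytokine signals, went the other way, with 4636 in MLCs and 12212 in SMCs, against 20212 in APCs and 24158 in FIPs. Egr3, a serum-induced zinc finger factor, was the single gene that limma called between APCs and FIPs, where edgeR and DESeq2 each called 2 of the 22, at 329 in APCs and 707 in FIPs, by a log2 difference of -1.17 ± 0.19, which became -0.92 and under 2-fold with libraries scaled to equal totals.

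Of 12 adipogenic genes that have been reported with these factors, 6 were called higher and none lower in APCs against FIPs, where 10.4% of all genes were called, among them Pparg, Cebpa, Slc2a4 and Gata2, while Klf5 and Klf9 were called in neither direction there. Pparg averaged 39.6 normalized counts in MLCs and 110 in SMCs, against 1282 in APCs and 444 in FIPs, and Cebpa 167, 811, 3189 and 1110. MLCs and SMCs, where Klf5 was high, were the populations with the lower Pparg. Dlk1, the preadipocyte gene, averaged 5060 in MLCs and 27133 in SMCs, against 28857 in APCs and 29505 in FIPs, while Klf6 was highest in FIPs. Of the 12, 1 was higher and 8 lower in MLCs against APCs, 3 and 5 in MLCs against FIPs, 2 and 7 in SMCs against APCs, 4 and 4 in SMCs against FIPs, and 2 and 8 in MLCs against SMCs. In the same order of pairs, 29.6%, 31.1%, 17.2%, 17.9% and 27.9% of all genes were called. Mature adipocyte markers summed to 270 to 327 in MLCs and 469 to 1379 in SMCs, against 2010 to 2621 in APCs and 139 to 171 in FIPs.

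Genes upstream of some members were read from 3 further lists. The MEK5 and ERK5 cascade and the MEF2 factors, which drive Klf2 and Klf4 in endothelium, were read by 8 genes. Mef2c was called higher in MLCs, at 706 normalized counts on average, than in SMCs, APCs and FIPs, at 252, 155 and 144. MLCs had the lowest Klf4 mean. Their Klf2 mean was not told apart from that of SMCs (limma log2 difference -0.036, adjusted p = 0.708). Mef2b, at 19.0 on average, was called higher in SMCs than in the other 3 populations, but not over APCs or FIPs with quantile normalization. Of 11 glucocorticoid-induced genes 0 were higher and 3 lower in MLCs against APCs, 1 and 4 in MLCs against FIPs, 1 and 2 in SMCs against APCs, 1 and 5 in SMCs against FIPs, 2 and 3 in MLCs against SMCs, and 0 and 1 in APCs against FIPs. In the same order of pairs, 29.6%, 31.1%, 17.2%, 17.9%, 27.9% and 10.4% of all genes were called. Tsc22d3, a rapid glucocorticoid target, was lowest in MLCs like Klf9, at 285 there against 1958 in SMCs, 2178 in APCs and 1414 in FIPs. Nr3c1, Errfi1 and Cebpd were lowest in MLCs too, but the rest of that list was not. Fkbp5 averaged 1438 in MLCs and 2318 in SMCs, against 869 in APCs and 693 in FIPs, and Sgk1 and Per1 were highest in MLCs. Of 10 TGF-beta-induced genes 3 were higher and 3 lower in MLCs against APCs, 4 and 3 in MLCs against FIPs, 3 and 0 in SMCs against APCs, 5 and 1 in SMCs against FIPs, 1 and 4 in MLCs against SMCs, and 3 and 0 in APCs against FIPs, beside the same shares of all genes. Pmepa1, a feedback gene of that pathway, averaged 204 in MLCs, against 1831 in SMCs, 1164 in APCs and 1086 in FIPs, and Bhlhe40, a clock-related repressor, 1632, 1447, 351 and 446 in the same populations.

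Checked against the labels, MLCs held the mesothelial markers and SMCs had the highest sum of smooth muscle and pericyte markers. Of these 11 markers 5 were called higher and 1, Notch3, lower in SMCs than in APCs. Against FIPs 9 were called higher in SMCs, and against MLCs 6, while Myh11 averaged 1262 in SMCs and 1288 in MLCs. Pdgfrb, on which the cells were sorted, averaged 457 normalized counts in MLCs and 3787 in SMCs, against 4717 in APCs and 2862 in FIPs. Pdgfra, a marker of fibroblasts and progenitors, averaged 471 in MLCs and 23838 in SMCs, against 20555 in APCs and 22966 in FIPs. Macrophage and myeloid markers summed to 2579 to 3148 in MLCs and 915 to 1140 in SMCs, against 605 to 1324 in APCs and 549 to 870 in FIPs, mostly Csf1r in MLCs, while Ptprc and Adgre1, defining genes of leukocytes and macrophages, averaged at most 6.59. Lymphocyte markers summed to at most 49.1 in a library. Of the 8 fibroblast and progenitor markers 6 were called lower in MLCs in each of the 3 pairs, with Col1a1 among them against SMCs and Dcn against APCs and FIPs, while Dpp4 was called higher in all 3. Neither the Col1a1 nor the Dcn calls held with quantile normalization. In APCs replicate 4 Acta2 stood at 2388, against 156 to 221 in the other APC libraries.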

How the data were processed

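Per the labels' protocols, libraries of total RNA were prepared with the NEBNext Ultra II RNA kit from cells used fresh after sorting. The deposited values are a normalized signal, that is read counts which the authors divided by a factor per library. Tools named without a role, per the submitters' processing notes, were DESeq2 1.6.3, featureCounts 1.4.6, HISAT2 2.0.1 and Trim Galore 0.4.1, with the builds GRCm38 and mm10. Neither the strand setting nor the annotation is given in the sources used here. Columns headed SMLCs were taken as the SMCs titles of the same number. In each of the 16 libraries 100% of the values above 0 were whole multiples of a single read to within 0.01, and the read totals gave the depth. Rows without a symbol, 1275, held at most 0.135% of a library's values.

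Genes with at least 10 in at least 4 of 16 libraries (15024 of 27179 rows) were tested with limma 3.58.1 in R 4.3.3 on log2(value + 1), by lmFit and eBayes with trend, all 4 populations in 1 model, two-sided, with Benjamini-Hochberg adjustment over all genes of a pair. The added 1 understates fold changes of low genes. Values after ± are SE or SD as written. Alternatives were other pseudocounts, filters, scalings, a replicate block, libraries left out, and edgeR 4.0.16 and DESeq2 1.42.0 on the whole reads of 14 libraries. FIPs replicate 1 and APCs replicate 2, with values per read near 1 (0.989 and 1.007), were kept out of edgeR and DESeq2. Their values above 0 were whole multiples of a read too. Between replicates of a population the chi-square per degree of freedom was 4.96 to 27.0, above counting noise. The limma fit was tested on simulated counts, with the same noise for all genes and no difference in depth between libraries. That simulation does not show how the fit behaves at the spread and depths of these libraries. The members and the gene lists were chosen with earlier results of these data known. The genes named are all members, the 2 genes nearest in pattern to each, up to 3 called genes of a list in a pair by adjusted p, and genes that a sentence on a list needs. Exon lengths come from GENCODE M21 and were joined by Entrez number.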

Additional observations from a re-analysis of the deposited data

How the results depend on the processing

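Over 27 alternatives 1440 of 1458 log2 fold changes of the members kept their direction and their joint call on both limits, 16 turned sign and 2 fell under 2-fold. Many of the 1458 could not turn, so the share that held overstates stability. The replicate block, no filter on low values and a fit of only the pair leave a log2 fold change as it was. So does leaving out a library of neither population in the pair. Scaling to equal totals turned Klf2 in APCs against FIPs (0.23) and in MLCs against SMCs (0.079), Klf13 in MLCs against FIPs (0.11) and Klf7 in SMCs against FIPs (0.060). Quantile normalization turned Klf2 in APCs against FIPs (0.22) and in MLCs against SMCs (0.028), Klf5 in APCs against FIPs (-0.033) and Klf4 in SMCs against APCs (0.081). Without both of the shallowest libraries Klf2 in APCs against FIPs was 0.045. Klf6 in MLCs against FIPs came to -0.78 and -0.66 under these scalings. Leaving out single libraries gave ranges through 0 for Klf2 in APCs against FIPs (-0.067 to 0.045) and in MLCs against SMCs (-0.083 to 0.035), Klf5 in APCs against FIPs (-0.046 to 0.15) and Klf13 in SMCs against APCs (-0.11 to 0.013); the member counts stayed at 0, 2, 3, 2, 3 and 0. Without the fold limit, an alternative added after seeing the data, the counts of Kruppel-like factors were 6 in APCs against FIPs, 7 in MLCs against APCs, 9 in MLCs against FIPs, 6 in SMCs against APCs, 7 in SMCs against FIPs and 7 in MLCs against SMCs. These passes on the adjusted p alone were less stable: leaving out single libraries ended Klf7 in MLCs against APCs (APCs replicate 1 or 3, or MLCs replicate 1, 2 or 4), Klf13 in MLCs against FIPs (FIPs replicate 3 or MLCs replicate 1), and Klf4 or Klf13 in MLCs against SMCs (7 of the 8 libraries, all but SMCs replicate 1), of which Klf4 was also lost with no filter on low values and without both shallowest libraries, and Klf13 in edgeR. Equal totals ended those of Klf2, Klf3 and Klf13 in MLCs against FIPs, of Klf13 in APCs against FIPs, of Klf7 in MLCs against APCs and of Klf4 in MLCs against SMCs, and quantile normalization those of Klf13 in MLCs against FIPs, of Klf2 in MLCs and in SMCs against FIPs and of Klf4 in APCs and in SMCs against FIPs and in MLCs against APCs. Others passed that had not: Klf9 in APCs against FIPs under 9 alternatives (all 3 scalings, the replicate block with adjusted p = 0.00313, and without APCs replicate 1 or 2, FIPs replicate 3, MLCs replicate 3 or SMCs replicate 2), Klf6 in MLCs against APCs (the block, edgeR, and without APCs replicate 1 or MLCs replicate 3), Klf13 in MLCs against APCs (the block and equal totals), Klf2 in APCs against FIPs and Klf9 in SMCs against FIPs (equal totals and quantile normalization), Klf3 in MLCs against SMCs (equal totals), and Klf4 in SMCs against APCs (without the shallowest libraries). The causes were not tested beyond the scaling itself: equal totals moved the median of all genes to 0.23 in APCs against FIPs, 0.35 in MLCs against FIPs, 0.22 in SMCs against FIPs, 0.15 in MLCs against SMCs and 0.11 in MLCs against APCs, and quantile normalization to -0.11 in MLCs against APCs and -0.10 in MLCs against FIPs. The Klf2 value of APCs against FIPs under equal totals was as large as the shift of the median gene. Of all genes called, the share called higher was 67.5% in APCs against FIPs and 71.4% in MLCs against FIPs with equal totals (50.1% and 59.8% as deposited), and 55.5% in SMCs against APCs and 54.4% in SMCs against FIPs with quantile normalization (78.0% and 74.3% as deposited). Of 357 calls of list genes 340 held with equal totals, 326 with quantile normalization and 356 with TMM factors, and none turned.

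A batch shared by same-numbered libraries was not tested. Their deviations correlated at -0.034 to 0.17, 6 of 24 over 0.1, in 15 of 24 best with the own number. With the replicate block the member counts stayed at 0, 2, 3, 2, 3 and 0, and the counts over all genes were 1567 in APCs against FIPs, 4452 in MLCs against APCs, 4680 in MLCs against FIPs, 2598 in SMCs against APCs, 2710 in SMCs against FIPs and 4211 in MLCs against SMCs. The number of libraries, 4 per population, and the depth limit what small differences in Klf5 and Klf7 can show.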
